A study of Mus musculus with 2 samples.

Results

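Protein kinase A (PKA) subunits and A-kinase anchors, with *Sphkap*, were examined as 10 genes. They are 7 anchors (*Sphkap*, *Akap1*, *Akap5*, *Akap6*, *Akap7*, *Akap12* and *Akap13*) and 3 PKA subunits (*Prkaca*, *Prkar1a* and *Prkar2a*). Every probe set that the array's annotation gave to exactly 1 of these genes was taken, which made 28 of 45101 probe sets, and 10 of the 18193 genes on the array. The group was chosen by function with the measured log2 ratios of these same arrays in view, where *Sphkap* was among the largest falls, so all values below are descriptions and no test was made on them.

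Gene expression was measured in primary mouse neonatal ventricular cardiomyocytes (mNVCM) of strain C57BL6/J, isolated 2 days after birth by enzymatic digestion of the heart, so that other cells of the heart can be among them. There was 1 array for mNVCM incubated with hAFS-CM Hypo before doxorubicin (hAFS-CM Hypo + Dox) and 1 array for mNVCM that received doxorubicin alone (Dox). hAFS-CM Hypo is medium conditioned by human amniotic fluid-derived stem cells under hypoxia, as the study's methods describe it, and Dox is an anthracycline used against cancer that is toxic to the heart. Both cultures were kept for 1 h in low serum, the first was pre-incubated for 3 h with the conditioned medium, and both received 1 µM Dox. The labels of the samples give 6 h of Dox for hAFS-CM Hypo + Dox and 21 h for Dox, whereas the study's methods give the shorter time for gene expression as a whole. If the labels are right, the pre-incubation and the hours of Dox cannot be told apart. With 1 array per condition there was no replicate check, no standard error and no p-value.

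PKA is the main effector of cyclic AMP (cAMP) in the heart. In the resting enzyme a dimer of regulatory subunits, of type I or type II, holds a pair of catalytic subunits inactive, and cAMP releases them. A-kinase anchoring proteins bind the regulatory dimer and hold PKA next to its substrates, together with phosphatases, phosphodiesterases and other kinases. In cardiomyocytes this arrangement lets beta-adrenergic stimulation reach the calcium channel, the ryanodine receptor, phospholamban and the myofilaments separately.

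*Sphkap* was the only one of the 10 genes to differ by 2-fold or more between the arrays. It codes for an anchor that prefers type I PKA and that also binds sphingosine kinase 1. Its probe set 1454926_at had a log2 value of 7.95 for hAFS-CM Hypo + Dox and 9.31 for Dox, which is a log2 ratio of -1.36, or 2.57-fold lower with the conditioned medium. That ratio ranked 9 from the lowest of all genes. The other probe set of *Sphkap*, 1431069_at, had 3.98 and 3.99, a log2 ratio of -0.01. These values lay below the median of all values (5.10) and near their 25th percentile (3.80), so that they are not shown to be above background. The lower level of *Sphkap* therefore rests on 1 probe set, and the mean of both probe sets gave a log2 ratio of -0.69, less than 2-fold.

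Among all genes, 0.214% were lower by 2-fold or more and 0.506% were higher. The count of 1 lower and 0 higher among the 10 members was fixed in part by the choice of *Sphkap*, and nothing is read from it. Without *Sphkap*, the other 9 members had log2 ratios from -0.35 to 0.43, with a median of -0.08, against a median of 0.01 for all genes.

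**Figure D1:**
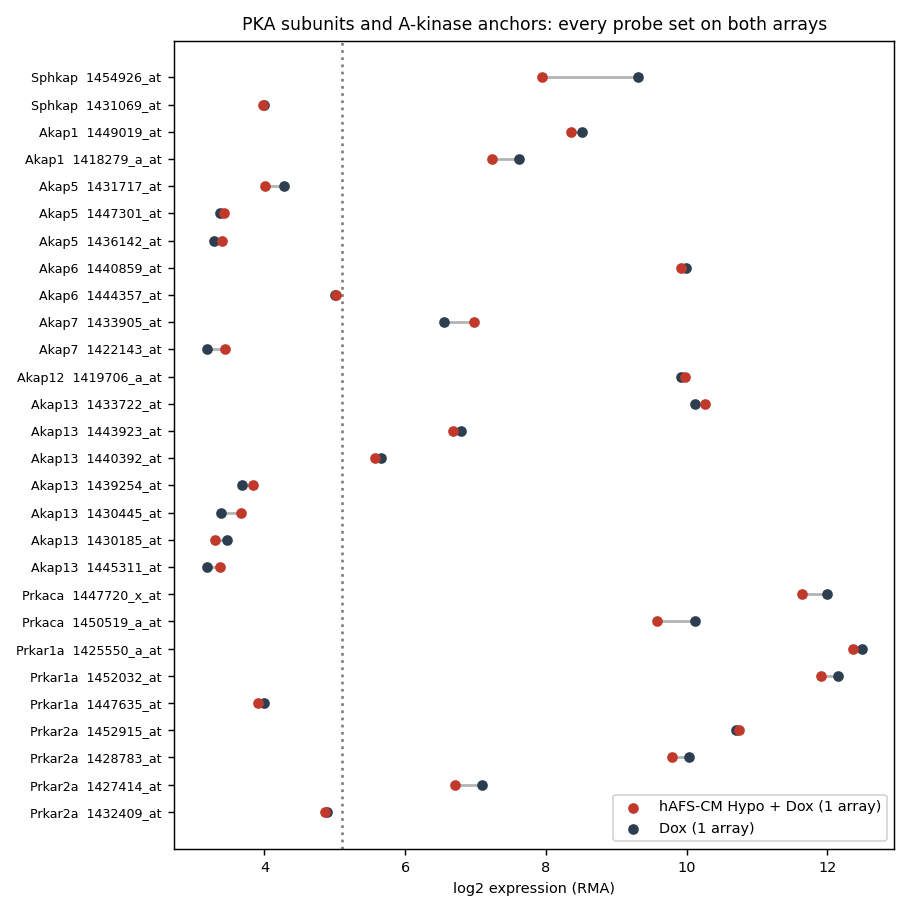
Log2 expression (RMA, x axis) of the 28 probe sets of the 10 genes (y axis, gene and probe set), on the hAFS-CM Hypo + Dox array (red points) and the Dox array (dark points), 1 array per condition, joined by a line; a dotted line marks the median of all values, 5.10. The widest gap is that of *Sphkap* at 1454926_at, 7.95 against 9.31, while its other probe set lies near 4 on both arrays; levels are not comparable between probe sets.

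The promoter window of *Sphkap* is printed here because it is the member with the largest difference, next to that of *Prkar1a*, the member whose window holds a cAMP response element, the octamer that the cAMP-dependent factor CREB binds. Both are from RefSeq on build GRCm38.p6, 250 bases before to 50 after an annotated start, written 5′ to 3′ on the gene's strand, with the octamer in capitals. The *Sphkap* window is chr1:83408151-83408450 on the minus strand and the *Prkar1a* window is chr11:109650699-109650998 on the plus strand, 1 of 6 windows of that gene.
Sphkap: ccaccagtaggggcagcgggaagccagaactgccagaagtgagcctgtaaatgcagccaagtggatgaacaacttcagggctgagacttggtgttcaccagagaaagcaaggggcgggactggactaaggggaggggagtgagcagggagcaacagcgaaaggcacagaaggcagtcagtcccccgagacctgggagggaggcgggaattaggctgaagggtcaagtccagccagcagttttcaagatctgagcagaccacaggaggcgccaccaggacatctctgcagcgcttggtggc
Prkar1a: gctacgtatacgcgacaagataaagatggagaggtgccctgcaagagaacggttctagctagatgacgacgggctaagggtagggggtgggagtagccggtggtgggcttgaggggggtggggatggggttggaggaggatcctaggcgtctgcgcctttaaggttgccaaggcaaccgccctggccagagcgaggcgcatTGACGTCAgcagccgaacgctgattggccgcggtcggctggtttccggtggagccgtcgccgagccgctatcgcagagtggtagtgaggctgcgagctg
The octamer TGACGTCA reads the same on both strands, and it began 49 bases before the annotated start in the printed *Prkar1a* window. It was present in 1.79% of all 32851 windows. Of the 10 members, 9 had windows, 18 in all, and 2 overlapping windows of *Prkar1a* held it. The shorter core TGACG, searched on both strands and contained in the octamer, was in 20.8% of all windows and in 5 of these 18, of *Prkaca*, *Prkar1a* and *Prkar2a*. The *Sphkap* window held neither, which says only that these letters are not in this window.

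The 3 PKA subunits among the 10 genes had log2 ratios of -0.35 (*Prkaca*), -0.12 (*Prkar1a*) and 0.04 (*Prkar2a*) at their brightest probe sets. *Prkaca*, which codes for the main catalytic subunit of the heart, had log2 values of 11.65 for hAFS-CM Hypo + Dox and 11.99 for Dox at 1447720_x_at, its brighter probe set, which gives -0.35 as the log2 ratio, or 1.27-fold lower. At its other probe set, 1450519_a_at, the values were 9.59 and 10.12, a log2 ratio of -0.54. Both probe sets were lower on the hAFS-CM Hypo + Dox array and both lay well above the median of all values. Their ID endings, _x_at and _a_at, are among those left out as less specific types in an alternative, where *Prkaca* then has no value. The ending _a_at stands for several transcripts of the same gene, so it need not mean binding to other genes.

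As a yardstick, the SD of log2 ratios within genes that had 2 or more probe sets at or above the median of all values was 0.21, over 5299 such genes. This SD describes disagreement between probe sets within these arrays, and holds no variation between cultures. By that SD or more, 15.5% of all genes were lower and 17.5% were higher. Of the 10 members, 3 were lower by it (*Sphkap*, *Prkaca* and *Akap5*), 1 was higher (*Akap7*) and 6 lay within it, and nothing is read from these counts.

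*Prkar1a* codes for the type I alpha regulatory subunit, the type that *Sphkap* prefers. Its log2 values were 12.36 for hAFS-CM Hypo + Dox and 12.49 for Dox at 1425550_a_at, a log2 ratio of -0.12, and 11.91 and 12.16 at 1452032_at, a ratio of -0.25. The third probe set, 1447635_at, was below the median of all values on both arrays and had a ratio of -0.09. All 3 were lower on the hAFS-CM Hypo + Dox array, 1 of them by more than the SD.

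*Prkar2a*, the type II alpha regulatory subunit, gave ratios that depended on the probe set. At 1452915_at it had log2 values of 10.74 for hAFS-CM Hypo + Dox and 10.70 for Dox, which is a log2 ratio of 0.04. Probe set 1428783_at, designed from the same source transcript, had 9.80 and 10.04, a ratio of -0.24, and 1427414_at had 6.71 and 7.09, a ratio of -0.39. The fourth, 1432409_at, had 4.85 and 4.88. The direction at the probe set used for *Prkar2a* was thus not that of its other 3, and the difference of 0.04 is smaller than the SD.

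**Figure D2:**
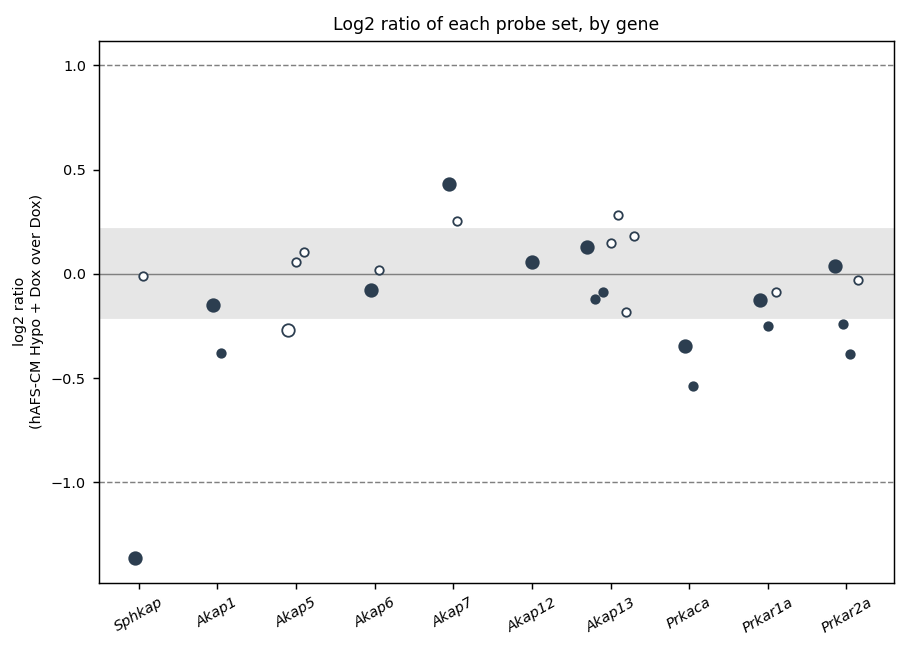
Log2 ratio (hAFS-CM Hypo + Dox over Dox, y axis) of each probe set by gene (x axis). Large points are the brightest probe set of a gene, by the mean of both arrays, open points lie below the median of all values on both arrays, the grey band is plus or minus the SD between probe sets (0.21) and dashed lines stand at 2-fold. *Sphkap* at -1.36 is the only point beyond a dashed line, both points of *Prkaca* lie below the band, and those of *Akap7* above it.

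Among the other anchors, *Akap7* was the highest. It codes for small anchors that tie PKA to the L-type calcium channel and, in a longer form, to phospholamban at the sarcoplasmic reticulum. Its log2 values were 6.98 for hAFS-CM Hypo + Dox and 6.55 for Dox at 1433905_at, a log2 ratio of 0.43, or 1.35-fold higher. At 1422143_at the values were 3.44 and 3.19, both under the 25th percentile of all values. Both probe sets were higher on the hAFS-CM Hypo + Dox array, but only 1 was measured above the median.

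*Akap1*, which holds PKA at the outer mitochondrial membrane, was lower at both probe sets, which were designed from the same source transcript. The log2 values were 8.36 for hAFS-CM Hypo + Dox and 8.51 for Dox at 1449019_at, a ratio of -0.15, and 7.23 and 7.61 at 1418279_a_at, a ratio of -0.38. The first lies within the SD between probe sets and the second beyond it.

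*Akap5*, which brings PKA, calcineurin and protein kinase C to membrane receptors and channels, stayed below the median of all values at all 3 probe sets. Its highest, 1431717_at, had 4.01 for hAFS-CM Hypo + Dox and 4.28 for Dox, which is a log2 ratio of -0.27, and the other 2 had ratios of 0.06 and 0.11. *Akap5* is thus not shown to be above background on either array, and its probe sets differed in sign.

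*Akap6*, *Akap12* and *Akap13* differed by less than the SD at the probe set used for each. *Akap6* codes for the large anchor of the myocyte nuclear envelope, and had 9.92 for hAFS-CM Hypo + Dox and 10.00 for Dox, which is a log2 ratio of -0.08. *Akap12* codes for gravin, a scaffold of the beta2-adrenergic receptor, and its only probe set had 9.98 and 9.93, a ratio of 0.06. *Akap13* codes for an anchor that also activates the GTPase RhoA, and had 10.26 and 10.12, a ratio of 0.13. Over its 7 probe sets *Akap13* ranged from -0.18 to 0.28, with 4 above 0 and 3 below, and 4 of them lay under the median of all values on both arrays.

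Over all 28 probe sets, 17 had a log2 ratio below 0 and 11 above. By the SD or more, 8 were lower and 3 were higher, beside 15.8% and 16.4% of all probe sets on the array. Probe sets of 1 gene share their RNA and are not independent, and the 8 came from 6 genes.

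Among all PKA subunits, 1 outside the 10 genes was the lowest and another the highest at the brightest probe sets, both regulatory. Of 7 other subunits and inhibitors, 1 was lower by 1.5-fold or more and 0 were higher, and their median log2 ratio was -0.02. Among all genes, 1.52% were lower and 2.32% higher by 1.5-fold. *Prkar2b*, the type II beta regulatory subunit, had log2 values of 6.10 for hAFS-CM Hypo + Dox and 6.73 for Dox, a ratio of -0.63, and -0.63 to -0.91 over 3 probe sets. *Prkar1b*, the type I beta regulatory subunit, had 9.22 and 8.70, a ratio of 0.52, and 0.36 to 0.69 over 5 probe sets. All probe sets of each gene ran the same way and all lay above the median of all values, although 2 of the 3 for *Prkar2b* and 4 of the 5 for *Prkar1b* share a source transcript with another. *Prkacb*, the catalytic beta subunit, had 10.11 and 10.31, a ratio of -0.20, within the SD.

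**Figure D3:**
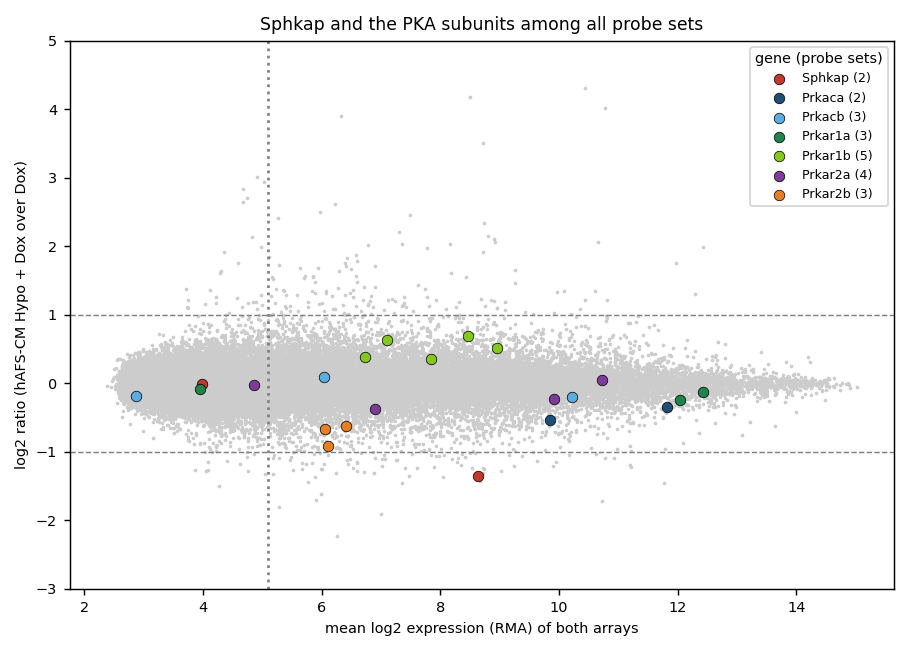
Log2 ratio (hAFS-CM Hypo + Dox over Dox, y axis) against the mean log2 expression of both arrays (RMA, x axis) for every probe set on the array (grey), with the probe sets of *Sphkap* and of the PKA subunits in colour; the number of probe sets is in brackets, the dashed lines mark 2-fold and a dotted line marks the median of all values. The 5 points of *Prkar1b* lie between 0.36 and 0.69, the 3 of *Prkar2b* between -0.63 and -0.91, and *Sphkap* has 1 point beyond 2-fold and 1 near 0 at low signal.

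Of 24 other anchors measured outside the 10 genes, 0 reached 1.5-fold in either direction at the brightest probe set, where 1.52% of all genes were lower and 2.32% higher, so nothing is read from this count. By the SD between probe sets, 5 were lower and 3 were higher, beside 15.5% and 17.5% of all genes, and 16 lay within it. The median log2 ratio was -0.02. At the brightest probe sets, the largest ratio with signal at or above the median was that of *Synm*, an intermediate filament protein, with -0.55 (6.60 for hAFS-CM Hypo + Dox and 7.15 for Dox), and 0.04 at its other probe set. *Akap4*, an anchor of the sperm tail, had -0.42 (5.36 and 5.78), and -0.17 and -0.04 at its other probe sets, which lay below the median of all values. *Cmya5*, which codes for the striated muscle anchor myospryn, had -0.40 (9.37 and 9.78) at its only probe set. Other probe sets could differ more: *Akap9*, an anchor of the centrosome and Golgi, had 0.13 at its brightest and down to -0.96 over 6 probe sets, and *Rdx*, which codes for the membrane linker radixin, had -0.12 at its brightest and down to -0.63 over 3.

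Genes that make and break down cAMP differed in both directions. Of 10 adenylyl cyclases, the enzymes that make cAMP, 1 was lower and 0 were higher by 1.5-fold or more. The shares of all genes were 1.52% and 2.32%, and the median log2 ratio of the cyclases was -0.14. *Adcy1*, which calcium and calmodulin stimulate, had 5.11 for hAFS-CM Hypo + Dox and 6.03 for Dox, a ratio of -0.92, and -0.60 at its other probe set, which lay below the median of all values. *Adcy7* had a ratio of 0.54 at the probe set used, but its other 2 probe sets, at low signal, had -0.11 and -0.34. *Adcy4* had 0.50 at its only probe set.

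Of 17 measured phosphodiesterases, the enzymes that break down cyclic nucleotides, 3 were higher and 1 was lower by 1.5-fold or more. Among all genes, 2.32% were higher and 1.52% lower, and nothing is read from the count of this list. The median log2 ratio of the list was 0.08. *Pde5a*, which acts on cyclic GMP, had 6.52 for hAFS-CM Hypo + Dox and 5.58 for Dox at 1458341_x_at, which is a log2 ratio of 0.94. That probe set is of a less specific type. The other 2 probe sets of *Pde5a* had 0.18 and 0.29, and with less specific types left out its ratio was 0.29, below 1.5-fold. *Pde4d*, a cAMP phosphodiesterase that the *Akap6* product can hold, had 7.48 and 6.76, a ratio of 0.72, and -0.16 at its other probe set, at low signal. *Pde1c*, which calcium and calmodulin activate, had 5.09 and 6.07, a ratio of -0.98, with -0.98 to 0.04 over 6 probe sets, of which 1 reached the median of all values.

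Receptors, G proteins and other cAMP effectors gave no gene past 1.5-fold among 9 measured of 15 listed. Among all genes, 2.32% were higher and 1.52% lower by that much, so nothing is read from this count. *Rapgef3*, which codes for the cAMP-activated exchange factor Epac1, had a log2 ratio of 0.43, and its 5 probe sets were all above 0, down to 0.02. *Popdc2*, a cAMP-binding Popeye protein of striated muscle, had -0.43 (11.01 for hAFS-CM Hypo + Dox and 11.43 for Dox). *Gnai2*, an inhibitory G protein subunit, had -0.35, and 0.07 at its other probe set.

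The list of cardiac PKA substrates held 15 genes, of which some, such as *Kcne1* and *Atp2a2*, code for a partner of a substrate. In this list 1 gene was lower and 0 were higher by 1.5-fold or more, beside 1.52% and 2.32% of all genes. The lower gene was *Kcne1*, so the count holds no direct substrate. A log2 ratio below 0 was found for 11 of the 15 (median -0.09) and for 8869 of all 18193 genes. The list shares *Ryr2*, *Pln* and *Tnni3* with the cardiomyocyte markers given below, so the values of the substrates and the markers are not separate results. *Kcne1*, which codes for the beta subunit of a repolarizing potassium channel, had 8.90 for hAFS-CM Hypo + Dox and 9.52 for Dox, a ratio of -0.63, and -1.03 at its other probe set. *Pln*, which codes for phospholamban, the brake on the calcium pump that PKA releases, had 12.93 and 13.50, a ratio of -0.57, and down to -0.87 among its 3 probe sets, which share a source transcript. Both genes were lower at every probe set. *Rrad*, a small GTPase that restrains the L-type calcium channel, had 0.34.

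Of 13 measured CREB factors and cAMP-induced genes, 1 was lower by 2-fold or more and 0 were higher. The shares of all genes were 0.214% and 0.506%, and the median log2 ratio of the list was 0.04. The lower gene was *Ppargc1a*, a coactivator of mitochondrial genes. It had 6.35 for hAFS-CM Hypo + Dox and 7.45 for Dox, a ratio of -1.10, and -1.10 to -0.41 over its 5 probe sets. *Crtc3*, a CREB coactivator, had 0.31, and *Crtc2*, another, had 0.31 and, at its other probe set, -0.34. By the SD between probe sets, 5 genes of this list were higher and 3 were lower, beside 17.5% and 15.5% of all genes.

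Of 14 phosphatases and kinases that anchors hold, 1 was higher by 1.5-fold or more and 0 were lower. The shares of all genes were 2.32% and 1.52%, and the median of the list was -0.04. The higher gene was *Sphk1*, the sphingosine kinase that the *Sphkap* product binds. Its log2 values were 6.41 for hAFS-CM Hypo + Dox and 5.59 for Dox, a ratio of 0.82, at 1451596_a_at. The ending of that ID stands for several transcripts of the same gene. Its other probe set, below the median of all values, had 0.57. *Sphk1* and *Sphkap* thus differed in opposite directions on these arrays. *Prkce*, a protein kinase C, had -0.45 and was lower at all 4 probe sets, and *Ppp1cb*, a catalytic subunit of protein phosphatase 1, had -0.34.

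**Figure D4:**
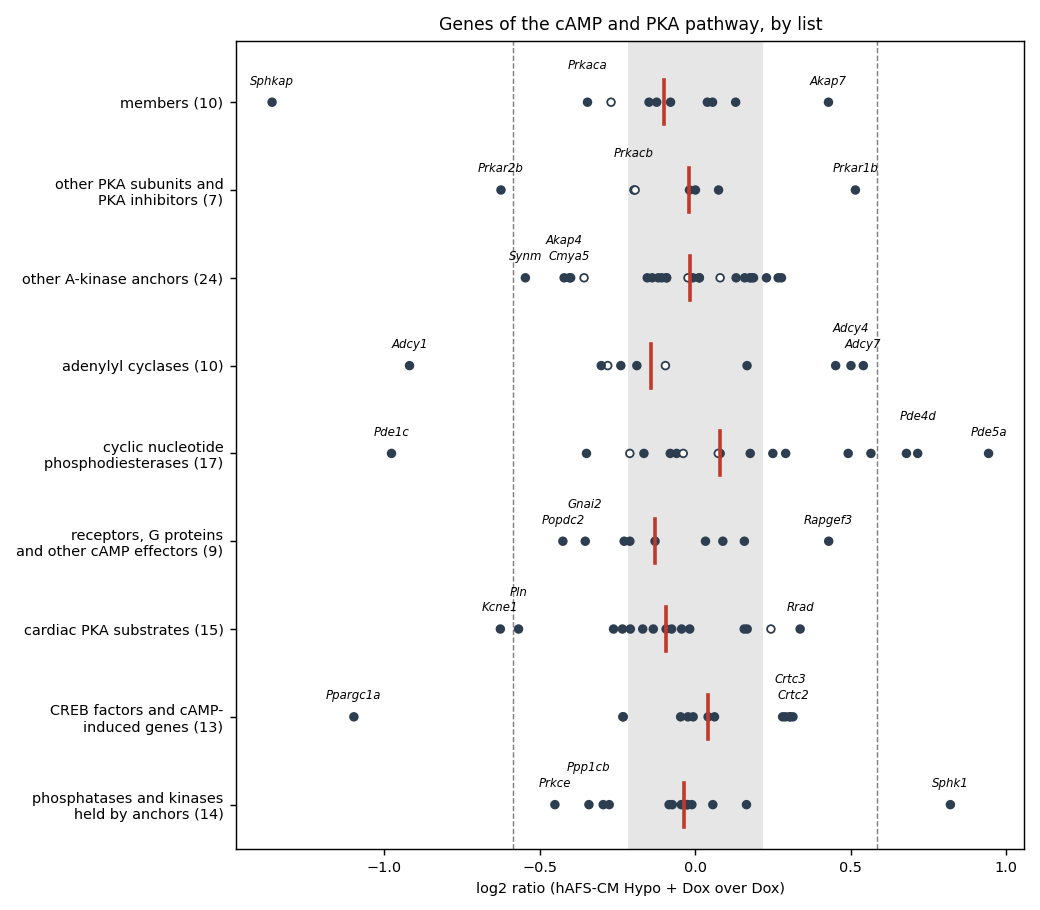
Log2 ratio (hAFS-CM Hypo + Dox over Dox, x axis) of each measured gene in the 10 members and in 8 lists of the cAMP and PKA pathway (y axis, number of measured genes in brackets), each at its brightest probe set. Open points lie below the median of all values on both arrays, red bars are list medians, the grey band is plus or minus the SD between probe sets, and dashed lines stand at 1.5-fold. The list medians lie between -0.14 and 0.08, inside the band, and single genes such as *Sphkap*, *Ppargc1a*, *Pde1c*, *Adcy1*, *Sphk1* and *Pde5a* lie outside the lines.

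Over the 8 lists together, 4 of 109 measured genes were higher and 5 were lower by 1.5-fold or more, beside 2.32% and 1.52% of all genes, and their median log2 ratio was -0.02.

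The cultures carried the RNA of cardiomyocytes and of other heart cells. All 8 cardiomyocyte markers had log2 values of at least 9.78, and all 8 were lower on the hAFS-CM Hypo + Dox array, with a median log2 ratio of -0.14 and a range of -0.57 (*Pln*) to -0.02 (*Tnnt2*). Their mean log2 value was 13.42 for hAFS-CM Hypo + Dox and 13.61 for Dox. The 6 fibroblast markers had a median ratio of -0.08 and ran from -0.43 (*Postn*) to 0.79 (*Pdgfra*, 1.73-fold higher). The 5 endothelial markers had a median of 0.03 (-0.22 to 0.14), the 4 of smooth muscle 0.13 (-0.01 to 0.32) and the 4 of macrophages 0.20 (-0.17 to 0.33). The 4 epicardial markers had a median of 0.00, and ran from -0.33 to 0.41, all of them beyond the SD, 2 in each direction. The part of these differences in the values of *Sphkap*, *Prkaca* and *Pln* was not tested. In bulk RNA, fewer cells of a type and less RNA per cell cannot be told apart.

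The genes with the log2 ratio nearest to that of *Sphkap*, at or above the median signal, were *Tspan12* (-1.37), *Clec14a* (-1.37), *Egflam* (-1.33), *Lpar3* (-1.32) and *Tmem71* (-1.31). With 2 arrays, likeness means only a difference of the same size.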

How the data were processed

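Gene expression in mNVCM was measured on Affymetrix mouse genome arrays, 1 for hAFS-CM Hypo + Dox and 1 for Dox. The authors ran RMA, which includes quantile normalization between arrays, and deposited 1 log2 value per probe set; these values were not changed. The submitters' processing notes name RMA; its software and version were not given in the sources used here. The range, 2.37 to 15.05, is that of log2 values. The array's annotation gave 1 gene to 34958 probe sets, and symbols were updated through the Entrez ID with RefSeq genes of GRCm38.p6, which matched 34754. The 64 Affymetrix controls carry no gene here.

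A gene took the values of its brightest probe set by the mean of both arrays, and the log2 ratio is hAFS-CM Hypo + Dox minus Dox. The 2-fold threshold is that of the study's methods. With 1 array per condition no test was possible, and this number limits the precision. The members and gene lists were chosen with earlier results of these data known. In each list, the 3 genes with the largest ratios at the brightest probe set, at or above the median signal (5.10), are named, and *Akap9* and *Rdx* were added after their values were seen. The code that counts genes past a fold threshold was run on simulated data with planted changes. That run checks the code only and says nothing on how reliable the counts of these arrays are. Alternatives were the mean or the most changed probe set, centring, lowess correction (span 0.3), filters on low signal, and thresholds of 1.5-fold and 3-fold. Another left out probe sets of less specific types, taken as IDs ending in _s_at, _x_at, _a_at or _f_at. Calculations ran in Python 3.11.15 with pandas 2.3.3, numpy 2.4.6 and, for lowess, statsmodels 0.14.6; plots were drawn with matplotlib 3.10.9.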

Additional observations from a re-analysis of the deposited data

How the results depend on the processing

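A value was taken to have moved when it shifted by the SD between probe sets (0.21) or more, and a count when it changed by over 1.5 times. With the mean of all probe sets, *Sphkap* had a log2 ratio of -0.69 and 0 members were lower by 2-fold; the count was also 0 at 3-fold, and 1 under every other alternative. The 4 pathway genes higher by 1.5-fold became 1 with the mean of all probe sets and 2 without less specific probe sets, and the 5 lower became 11 with the most changed probe set, which also gave the CREB factors and cAMP-induced genes a median of -0.23. Of the alternatives for these summary results, 95 did not move and 7 did. For single genes, 209 did not and 17 did. Many of these could not move, because centring shifted every ratio by only 0.0017 and a gene with 1 probe set has no other to take. The tallies are therefore no measure of how reliable the values are. Every probe set of *Sphkap* and *Ppargc1a*, the single genes past 2-fold here, was below 0, so no choice or mean of probe sets could change their sign. The smaller ratio of *Prkar2a* did change sign, to -0.15 with the mean of all probe sets and -0.39 with the most changed one. So did that of *Crtc2* (-0.01 and -0.34), and *Adcy7* had -0.11 without less specific probe sets. *Prkaca* and *Akap12* had no value without less specific probe sets, and *Akap5* had none at or above the median signal. No paired analysis was possible because each condition has 1 array, and for the same reason no array could be left out. The scan or hybridisation batch of the arrays is not given in the sources used here.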

Other observations

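The cardiac adenylyl cyclases *Adcy5* and *Adcy6* and the stimulatory G protein gene *Gnas* were looked at after their values were seen, as they lie upstream of PKA in cardiomyocytes. *Adcy5* had log2 values of 7.33 for hAFS-CM Hypo + Dox and 7.57 for Dox at its brightest probe set, 1447696_x_at, a ratio of -0.24. That probe set is of a less specific type, and the count of cyclases above used it. The next probe set of *Adcy5*, 1455296_at, is not of such a type and also lay above the median of all values. It had 6.70 and 7.63, a ratio of -0.93. *Adcy6* had 9.03 and 9.22, and *Gnas* had 13.56 and 13.53 at its brightest probe set. *Akap2*, another anchor, is named by an older symbol in the array's annotation and was not counted in the list of other anchors. Its probe sets, also looked at after the values were seen, had 10.70 for hAFS-CM Hypo + Dox and 10.62 for Dox at 1455870_at, and 9.85 and 10.27 at 1449168_a_at.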
